A study of Rattus norvegicus with 18 samples.

Results

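Dorsal root ganglia (DRG) of 6 Lister hooded rats with bilateral pyramidotomy and a GFP vector (bPYX+GFP) were compared with those of 6 unoperated, untreated rats of the same strain (naïve), 12 of the 18 rats of the series. The rats were taken by their numbers in the heading of the count table, 5, 15, 18, 21, 52 and 57 for bPYX+GFP and 41, 42, 43, 44, 45 and 49 for naïve. In bPYX+GFP rats both corticospinal tracts, the descending pathway from motor cortex to spinal cord, were cut in the pyramids of the medulla. A day later AAV1-CMV-EGFP, an adeno-associated virus that drives green fluorescent protein from a general promoter, was injected into the forelimb flexors of 1 side. The C6-C8 ganglia of that side were taken 10 weeks after the injury and pooled within each rat, not between rats. Naïve rats had neither surgery nor vector, so the lesion, the surgery, the virus and the later handling cannot be told apart in this comparison, and the corticospinal tract itself holds no axons of DRG neurons. The other 6 rats (bPYX+NT3) had the same lesion and AAV1 encoding human neurotrophin-3. Their levels are given beside those of some genes, without a test. Ages and sexes are not given in the labels.

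A ganglion holds the cell bodies of sensory neurons, which send 1 axon branch to skin or muscle and another to the spinal cord. Each cell body is wrapped by satellite glia, and the axons are wrapped by Schwann cells, which wind the larger ones in myelin, a stack of membranes rich in cholesterol and galactolipids and held together by a small set of abundant proteins. Fibroblasts and Schwann cells lay down collagen and basement membrane, capillaries supply the tissue, and resident macrophages and mast cells lie between the axons. RNA of the whole tissue was sequenced, so the counts mix all of these cells, and fewer cells of a type cannot be told apart from less RNA per cell.

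Reads counted on the 15075 RefSeq identifiers of the count table ranged from 10357766 to 16002410 per naïve rat and from 10057787 to 13606184 per bPYX+GFP rat. The pan-neuronal genes were abundant in all 12 rats, for example Stmn2, a neuronal tubulin-binding protein, with from 24924 to 28836 normalized counts in naïve rats and from 27330 to 30869 in the bPYX+GFP group. Normalized counts are scaled to a common library size. Among the blood and other-tissue markers, Ckm, Acta1 and Myh4 of skeletal muscle and Krt5 and Krt14 of epidermis did not pass the filter on low counts. Rat 57 of the bPYX+GFP group stood apart. Its median correlation with its own group was 0.970 in log2 CPM (counts scaled to library size) against 0.983 to 0.992 for the other 11 rats, its share of reads on no annotated feature was 31.7% against 33.6% to 34.2% in the rest of its group, and its pan-neuronal genes lay 0.43 above the naïve mean on the log2 scale. Values without this rat are given where it changes them. The record that holds each single-rat file carries a title of another group for 17 of the 18 rats, whereas by the sample numbers in the heading of the count table the titles name the groups used here for 18 of 18. The counts of the table and of the single-rat files are identical for each rat number.

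Of 11601 genes tested, 377 (3.25%) reached a p under 0.05 without adjustment (quasi-likelihood test of edgeR). The study also took an edgeR p under 0.05 and did not say whether it was adjusted. Its lists of mRNAs changed in bPYX+GFP against naïve rats together hold fewer genes than were called here. Genes under the threshold used here are called higher or lower below. Of these, 85 (0.733%) were higher and 292 (2.52%) lower in bPYX+GFP rats. If no gene differed, 5% or 580.1 genes would be called on average, and 0 genes had an edgeR adjusted p under 0.05 (smallest 0.201), so no gene passed the adjustment. The likelihood ratio test of edgeR gave 13 and DESeq2 17 genes with an adjusted p under 0.05. Log2 fold changes (bPYX+GFP minus naïve) are given ± their standard error (SE) and normalized counts ± SD. The exact permutation p values given for some called genes are not adjusted. They use the same rats as the call, so a small value was likely in advance and is no independent check. The changes were small, with a median absolute log2 fold change of 0.31 among the genes called and 9 genes beyond 1. The median over all genes tested was 0.012. The 6 bPYX+GFP rats lay wholly above the 6 naïve rats in 6 genes (0.0517% of those tested) and wholly below them in 23 (0.198%) in log2 CPM. If no gene differed, a fraction of 0.00216 of the genes would separate in 1 direction or the other on average. This is close to the share seen over both directions. Lack of overlap in a gene named below is therefore no evidence by itself that the gene differs. Without rat 57 the number called was 595, of which 201 were higher and 394 lower. Without rat 52 the genes called higher numbered 135, and without naïve rat 43 they numbered 56.

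**Figure D1:**
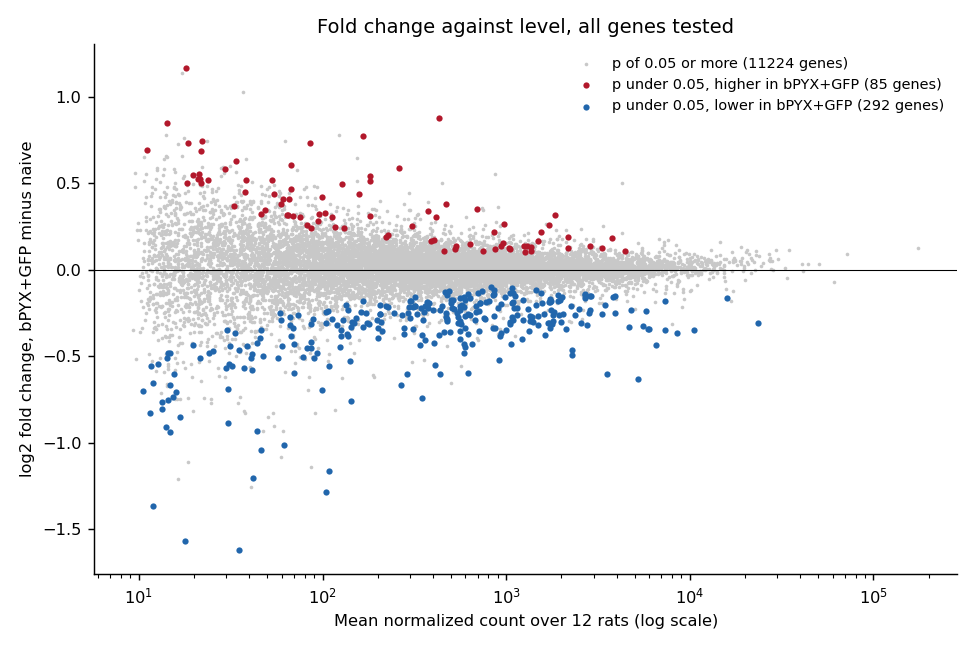
Log2 fold change (bPYX+GFP minus naïve) of each of the 11601 genes tested against its mean normalized count over the 12 rats on a log axis. The 85 genes called higher (red) and 292 called lower (blue) at an unadjusted p under 0.05 lie within 1 log2 unit of 0 but for 9.

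The genes were read through 40 lists of pathways and cell types. Of the 816 genes tested that belong to a list, 77 were called (9.44%), 12 higher and 65 lower. The lists were chosen with results of these data known, so this share is a description. Over all genes tested 0.733% were called higher and 2.52% lower, the shares to set beside each list count below. The median log2 fold change of the members lay below 0 in 24 lists and above 0 in 16. The lists with the most called genes were myelin proteins, collagens and other matrix proteins with 8 each and cell cycle with 6, all of them lower in bPYX+GFP rats, while endothelial receptors and transcription factors formed the one list with more than 1 called member (6) and all of them higher. In 12 lists, among them nociceptors, proprioceptors, sodium and calcium channels, synaptic vesicle fusion, oxidative phosphorylation and ribosomal proteins, 0 members were called, and at most 3 in any fit that leaves out 1 rat. Counts of called members moved readily with single rats. The filter on low counts was applied anew in each of these fits, so a member that it removed counts as not called there. Over the 12 fits that leave out 1 rat, the count changed by more than 1.5 times in 22 of the 28 lists with a call, and the counts without 1 rat are given beside those lists below. The genes called in total ran from 272 to 595 over the same fits.

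**Figure D2:**
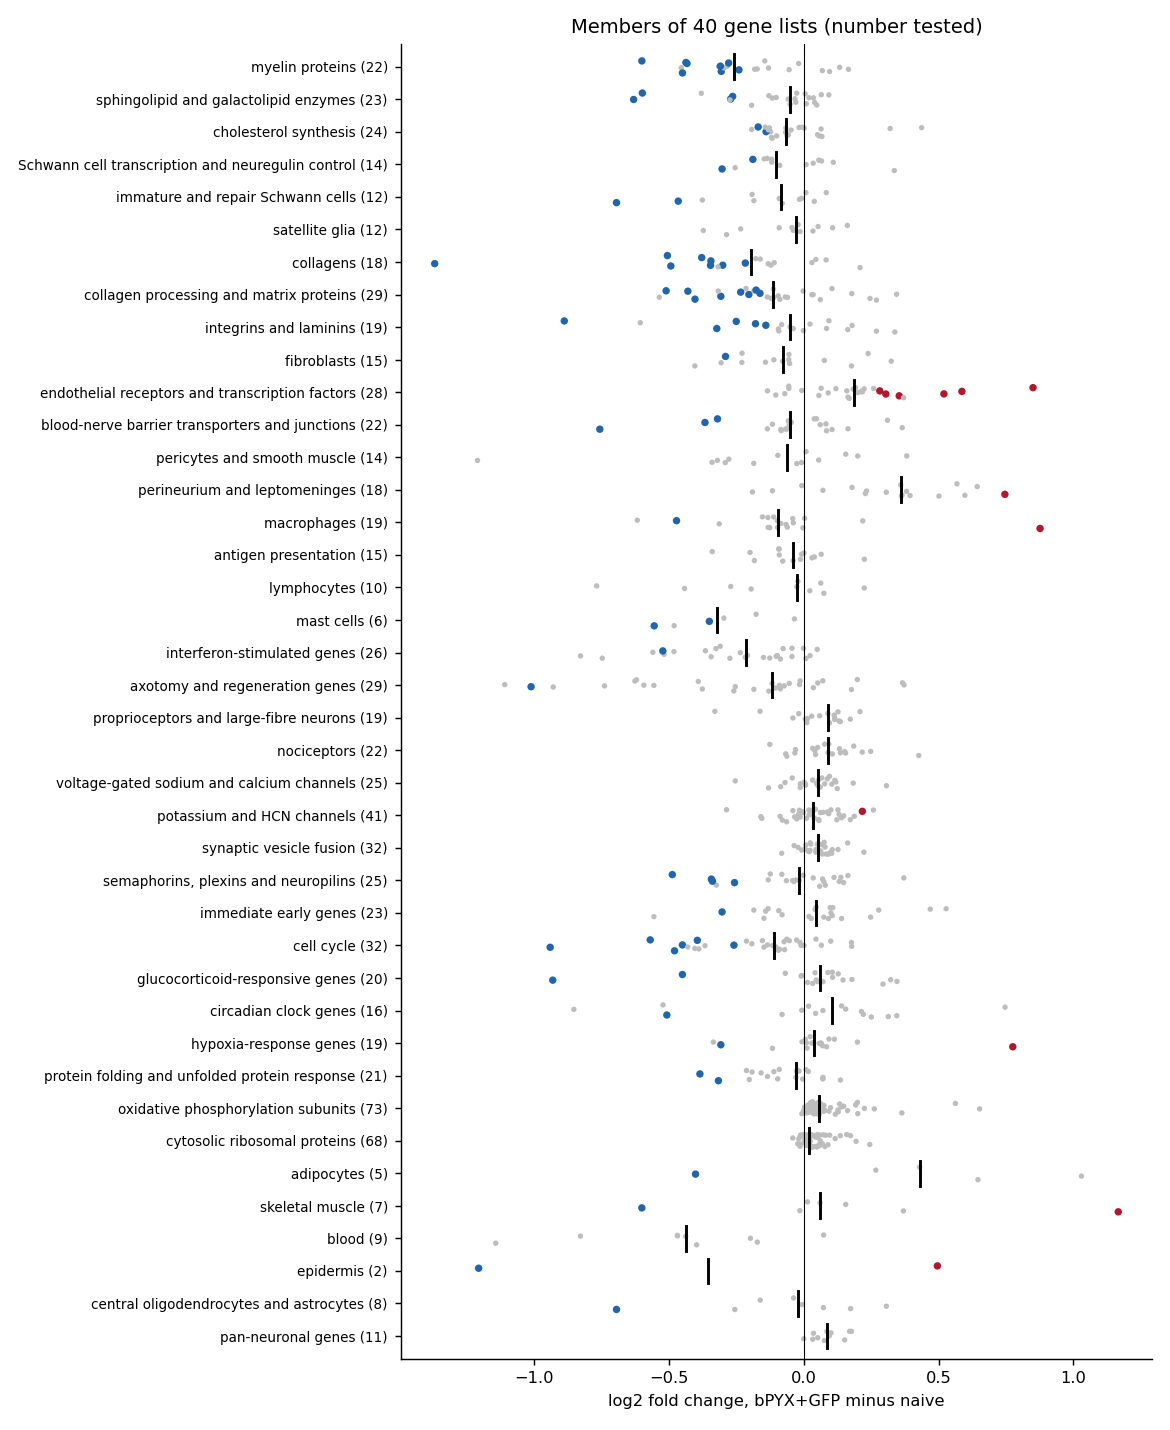
Log2 fold change (bPYX+GFP minus naïve) of every tested member of the 40 gene lists, with the number tested in brackets. Red and blue points are members called higher and lower at an unadjusted p under 0.05, grey points are not called, the vertical spread within a row has no meaning, and black bars are the list medians, from -0.44 for blood to 0.43 for adipocytes.

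Several myelin genes were called lower in bPYX+GFP rats. Of the 22 proteins of peripheral myelin and its junctions, 8 (36.4%) were called, all of them lower against 2.52% of all genes (6 to 14 without 1 rat, the most without rat 57), 18 had a log2 fold change below 0, and the median was -0.26. Mal, a proteolipid of myelin membranes, ranged from 6279 to 9928 (median 7134) normalized counts in naïve rats and from 4933 to 6706 (median 5309) in bPYX+GFP rats. The groups overlapped only in the bPYX+GFP rat with the highest value, which lay above the 2 lowest naïve rats (log2 fold change -0.44 ± 0.12, edgeR adjusted p = 0.777, exact permutation p = 0.00866). The bPYX+NT3 rats stood at 5485 ± 560.0 (SD, n = 6) for Mal. Pmp22, a protein of compact myelin whose dosage underlies inherited neuropathies, ranged from 21233 to 32583 (median 26124) normalized counts in naïve rats and from 17746 to 24829 (median 21434) in bPYX+GFP rats. These ranges overlapped (log2 fold change -0.31 ± 0.11, edgeR adjusted p = 1), and the bPYX+NT3 mean was 21064 ± 879.7.

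Pmp2, the fatty acid binding protein of myelin, had the largest change of the list (4278 ± 1191 in naïve and 2821 ± 689 normalized counts in bPYX+GFP rats, SD, log2 fold change -0.60 ± 0.19, edgeR adjusted p = 0.859). Cnp, a phosphodiesterase of the cytoplasmic channels of myelin, ranged from 1527 to 2262 (median 1922) normalized counts in naïve rats and from 1428 to 1793 (median 1473) in bPYX+GFP rats. The groups overlapped in rats 5 and 57, the latter the highest of its group, and the log2 fold change of -0.31 ± 0.093 was -0.37 without that rat. Gldn, which gathers sodium channels at the node, and Plekhb1 were called lower at log2 fold changes of -0.28 ± 0.10 and -0.24 ± 0.090. Gjb1, the gap junction protein of Schwann cells, had a log2 fold change of -0.45 ± 0.18, and Cldn19, a claudin of their tight junctions, -0.43 ± 0.18. Mag, an adhesion protein of the inner myelin layer, was not called over the 12 rats, with a log2 fold change of -0.46 ± 0.23. Without rat 57 it was called, at a log2 fold change of -0.64, the called members numbered 14 of 22, and the list median was -0.34. The mean level of the whole list ran from -0.28 to 0.17 around the naïve mean in naïve rats (log2 CPM) and from -0.42 to -0.23 in bPYX+GFP rats other than rat 57, which stood at 0.14.

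Some enzymes that build the myelin galactolipids and their very long acyl chains were also called lower. Among the 23 tested of the sphingolipid and galactolipid list, 4 were called (17.4%), all lower against 2.52% of all genes, although the list median was -0.051. Without 1 rat the called members numbered 4 to 7, with 7 without naïve rat 45 and 6 without rat 57. Ugt8, the galactosyltransferase that makes galactosylceramide, ranged from 4900 to 8673 (median 6199) normalized counts in naïve rats and from 3166 to 5174 (median 3784) in bPYX+GFP rats, with 4 of the 6 bPYX+GFP rats below every naïve rat (log2 fold change -0.63 ± 0.15, edgeR adjusted p = 0.593, exact permutation p = 0.00866). The bPYX+NT3 rats had 4000 ± 725. Fa2h, which hydroxylates the fatty acids of these lipids, ranged from 599 to 982 (median 722) normalized counts in naïve rats and from 392 to 601 (median 476) in bPYX+GFP rats and overlapped in 1 bPYX+GFP rat (log2 fold change -0.60 ± 0.13, edgeR adjusted p = 0.461). Cers2, the ceramide synthase for very long chains, ranged from 1773 to 2125 (median 1959) normalized counts in naïve rats and from 1558 to 1741 (median 1583) in bPYX+GFP rats. Here the groups did not overlap (log2 fold change -0.26 ± 0.055, edgeR adjusted p = 0.377, exact permutation p = 0.00216, the smallest that 6 rats against 6 allow). Elovl1, an elongase of the same chains, had a log2 fold change of -0.27 ± 0.078. Gal3st1, which adds the sulphate of sulphatide, was not called at a log2 fold change of -0.38, and the general ceramide pathway lay near 0, for example Sptlc1 at 0.0091 and Ugcg, which makes glucosylceramide, at 0.0048. Of 24 tested cholesterol synthesis genes 2 were called (8.33%), both lower against 2.52% of all genes, and the median was -0.065. The called members numbered 4 without naïve rat 41 or 42, 3 without rat 52 or 57 and 1 without any other rat. Nsdhl, a sterol dehydrogenase, was among the 2 called, with a log2 fold change of -0.17 ± 0.078. Nsdhl was called in 3 of the 12 fits that leave out 1 rat.

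The promoters of the 2 called genes with the smallest p in each of the lists of myelin proteins and of galactolipid enzymes are printed because these genes carry the lower levels described above. They run from 250 bases before to 50 after the gene's start in RefSeq (GRCr8), at chr3:135341374-135341673 (- strand) for Mal, chr10:86011254-86011553 (+ strand) for Cnp, chr2:185579261-185579560 (+ strand) for Cers2 and chr19:56273431-56273730 (- strand) for Fa2h. Capitals mark ACAAAG, a core bound by SOX proteins such as SOX10, and GCGTGGG, a core bound by EGR proteins such as EGR2, searched on both strands. The motifs share no overlap in these promoters.
Mal: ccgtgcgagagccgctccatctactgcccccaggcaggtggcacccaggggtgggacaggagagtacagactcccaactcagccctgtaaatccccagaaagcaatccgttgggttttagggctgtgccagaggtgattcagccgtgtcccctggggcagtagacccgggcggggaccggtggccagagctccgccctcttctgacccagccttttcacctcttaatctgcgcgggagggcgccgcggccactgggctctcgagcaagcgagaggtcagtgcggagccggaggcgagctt
Cnp: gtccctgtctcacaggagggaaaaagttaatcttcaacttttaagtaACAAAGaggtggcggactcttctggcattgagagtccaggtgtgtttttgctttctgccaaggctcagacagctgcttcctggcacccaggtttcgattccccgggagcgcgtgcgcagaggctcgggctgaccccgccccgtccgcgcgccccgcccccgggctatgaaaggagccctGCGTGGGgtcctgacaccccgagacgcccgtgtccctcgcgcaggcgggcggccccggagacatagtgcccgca
Cers2: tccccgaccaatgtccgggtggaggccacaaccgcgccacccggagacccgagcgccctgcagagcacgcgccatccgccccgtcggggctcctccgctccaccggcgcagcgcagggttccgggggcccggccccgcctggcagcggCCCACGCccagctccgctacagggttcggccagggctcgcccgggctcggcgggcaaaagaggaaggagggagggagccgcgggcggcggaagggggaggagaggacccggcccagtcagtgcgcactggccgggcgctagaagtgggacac
Fa2h: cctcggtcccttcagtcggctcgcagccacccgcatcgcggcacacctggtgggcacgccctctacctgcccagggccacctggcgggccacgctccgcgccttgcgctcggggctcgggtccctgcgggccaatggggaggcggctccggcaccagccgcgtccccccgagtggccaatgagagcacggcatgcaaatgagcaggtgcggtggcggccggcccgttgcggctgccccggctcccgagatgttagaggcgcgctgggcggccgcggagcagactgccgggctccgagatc
ACAAAG was found in 1 of the 7 called myelin genes with a RefSeq promoter (of 8 called) and in 1 of the 4 called galactolipid genes, and in 18.8% of all 33469 promoters of this length. GCGTGGG was found in 1 gene of each list and in 4.33% of all promoters. A match is a description of these letters only.

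Of the transcription factors and neuregulin signals that control myelination, 2 of 14 tested were called, both lower (0 without naïve rat 49, 1 without rat 5 or 52 or naïve rat 42, 43, 44 or 45, and 3 without naïve rat 41). Egr2, the factor that switches on the myelin genes, had -0.30 ± 0.12, with 1164 ± 215 normalized counts in naïve and 942 ± 120.1 in bPYX+GFP rats (SD). Zeb2, needed for myelination and called in 3 of 12 fits without 1 rat, had a log2 fold change of -0.19 ± 0.085. Sox10, which defines the lineage, was not called (-0.14 ± 0.25), with rat 57 highest of all 12 rats at 231 normalized counts. Immature and repair Schwann cells had no gene called higher. Among 12 tested, 2 were called lower, Gfap, an intermediate filament of non-myelinating glia, with a log2 fold change of -0.70 ± 0.20, and Cntf with -0.47 ± 0.14 (edgeR adjusted p = 0.822 and 0.822). Cntf is a survival factor held by myelinating Schwann cells, so its level is no measure of immature or repair cells alone. Naïve rat 49 had the highest Cntf of its group at 3820 normalized counts against 2272 to 2702 in the others. In bPYX+NT3 rats Gfap stood at 183 ± 131 and Cntf at 1913 ± 212. Ngfr, the low-affinity neurotrophin receptor that denervated Schwann cells raise, had a log2 fold change of 0.083 ± 0.14. Of the 12 tested satellite glia genes 0 were called and the median log2 fold change was -0.030. S100b, a calcium-binding protein of glia, had a log2 fold change of 0.034 ± 0.060, and Fabp7, a lipid-binding protein of satellite glia, -0.37 ± 0.30.

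**Figure D3:**
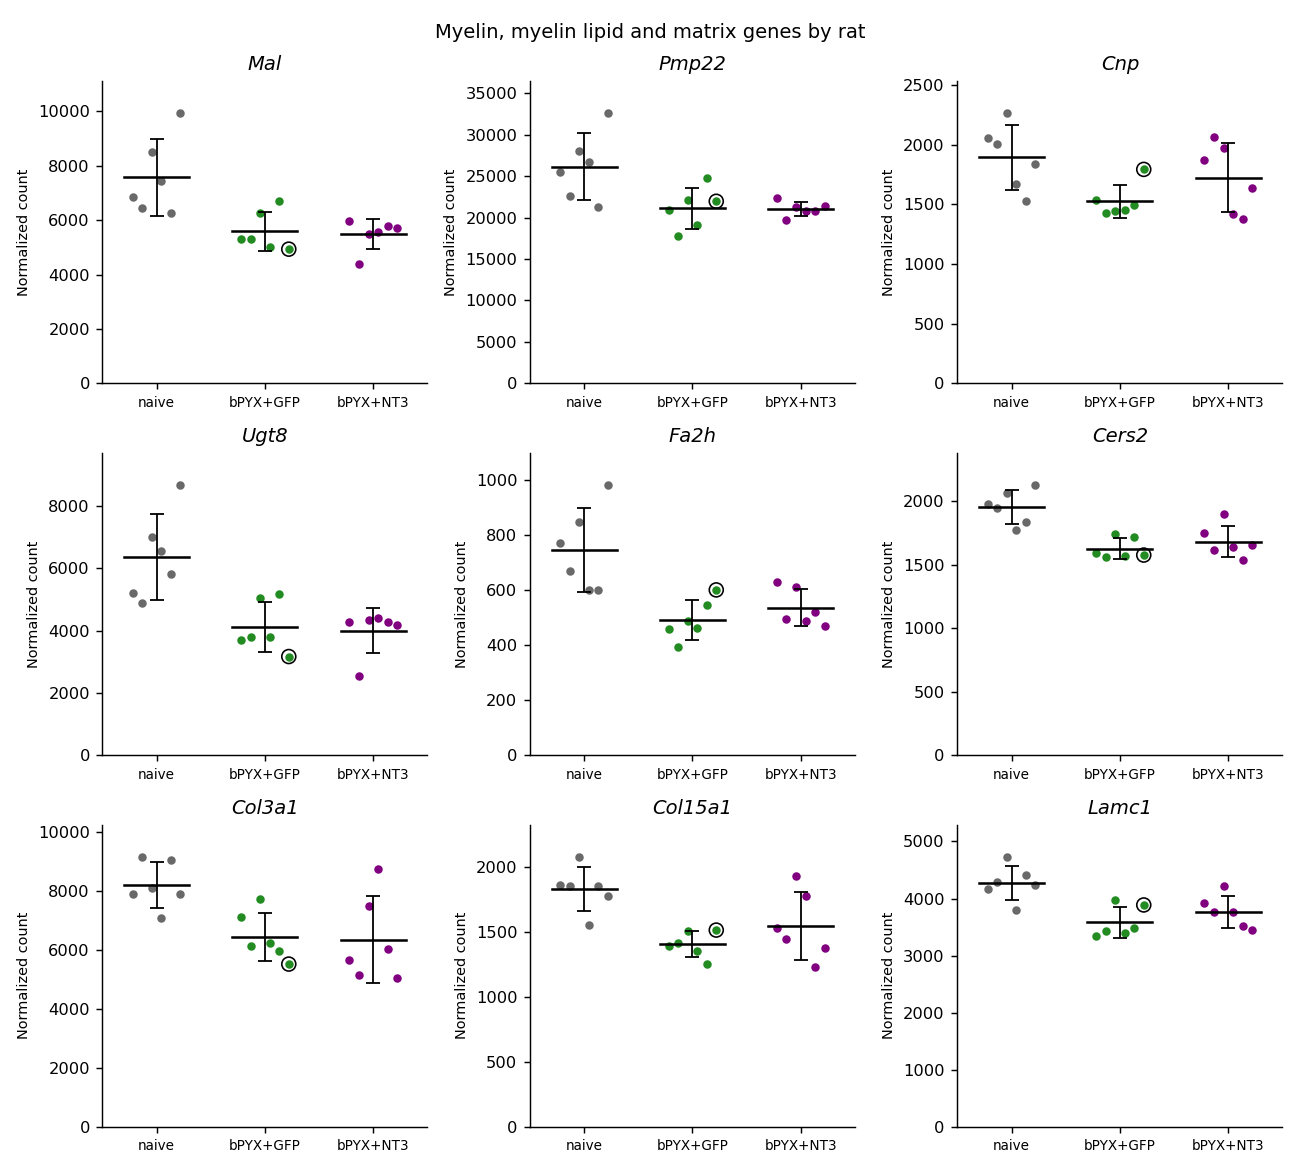
Normalized counts of 9 genes in each rat, from 0, for naïve (grey), bPYX+GFP (green) and bPYX+NT3 (purple) rats, 6 per group. Lines and bars are the mean ± SD and the ring marks rat 57. Cers2 and Col15a1 of bPYX+GFP rats lie wholly below the naïve rats, and the other 7 genes overlap.

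Several collagens were called lower as well. Of 18 tested collagen chains, 8 (44.4%) were called, all lower against 2.52% of all genes, and the median log2 fold change was -0.20. Without 1 rat the collagens called numbered from 5 (without rat 21 or naïve rat 43 or 49) to 9 (without rat 57), with 6 without naïve rat 45, and the median ran from -0.13 without naïve rat 41 to -0.31 without rat 57. The fibril chains of connective tissue were among them. Col1a1 ranged from 2075 to 3041 (median 2834) normalized counts in naïve rats and from 1484 to 2357 (median 1891) in bPYX+GFP rats and overlapped in 1 bPYX+GFP rat, rat 5 (log2 fold change -0.49 ± 0.12, edgeR adjusted p = 0.602). Col3a1 ranged from 7068 to 9149 (median 8006) normalized counts in naïve rats and from 5518 to 7710 (median 6180) in bPYX+GFP rats, with overlap in rats 5 and 18 (log2 fold change -0.35 ± 0.085, edgeR adjusted p = 0.67), against 6346 ± 1470 in bPYX+NT3 rats. A pair of chains that link fibrils to other structures did not overlap between the groups. Col15a1, which anchors basement membrane to fibrils, ranged from 1560 to 2080 (median 1856) normalized counts in naïve rats and from 1255 to 1517 (median 1407) in bPYX+GFP rats (log2 fold change -0.38 ± 0.070, edgeR adjusted p = 0.292), and Col14a1, which lines fibrils, from 2117 to 2825 (median 2266) normalized counts in naïve rats and from 1708 to 2074 (median 1856) in bPYX+GFP rats (log2 fold change -0.35 ± 0.078, edgeR adjusted p = 0.476). The chains best known from cartilage were low and also lower, with Col9a1 at 17.4 ± 9.01 and 6.45 ± 3.02 normalized counts (SD, log2 fold change -1.37 ± 0.40, called in 6 of 12 fits without 1 rat), Col2a1 at -0.51 ± 0.21 and Col11a1 at -0.22 ± 0.099. Without rat 57 or without naïve rat 45 Col9a1 did not pass the filter on low counts and counts as not called. Col4a1, a chain of all basement membranes, had a log2 fold change of -0.30 ± 0.12. Chains with a log2 fold change above 0 numbered 4, the highest Col4a4 at 0.21. Another 17 chains of the list, Col1a2 and Col5a2 among them, are paired with no identifier here and were not analysed.

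The proteins that process collagen and fill the matrix had 8 of 29 tested members called (27.6%), all lower against 2.52% of all genes. Their median log2 fold change was -0.11, and 6 to 10 were called without 1 rat. Serpinh1, the chaperone of procollagen, ranged from 1045 to 1445 (median 1216) normalized counts in naïve rats and from 661 to 1206 (median 904) in bPYX+GFP rats, with overlap in rat 18 (log2 fold change -0.43 ± 0.12, edgeR adjusted p = 0.822). P4ha1, a subunit of the enzyme that hydroxylates collagen prolines, had a log2 fold change of -0.31 ± 0.10 and Loxl4, which crosslinks fibres, -0.51 ± 0.18. Nid2, a linker of basement membranes, did not overlap between groups, ranging from 1280 to 1339 (median 1295) normalized counts in naïve rats and from 1041 to 1274 (median 1142) in bPYX+GFP rats, although its log2 fold change was -0.18 ± 0.056. Thbs2, Sparc, Lum and Fbn1 had log2 fold changes of -0.40 ± 0.12, -0.16 ± 0.060, -0.23 ± 0.098 and -0.20 ± 0.089. Postn was not called (log2 fold change -0.54 ± 0.30). Receptors and laminins that join cells to this matrix had 5 of 19 called (26.3%), all lower against 2.52% of all genes. Without 1 rat 4 to 7 were called, with 2 of the 7 higher. Lamc1, the gamma chain of most laminins, ranged from 3807 to 4728 (median 4262) normalized counts in naïve rats and from 3350 to 3970 (median 3452) in bPYX+GFP rats, with overlap in rats 18 and 57 (log2 fold change -0.25 ± 0.064, edgeR adjusted p = 0.706). Itga6, the laminin receptor subunit of Schwann cells, ranged from 5636 to 7578 (median 5765) normalized counts in naïve rats and from 4190 to 5638 (median 4847) in bPYX+GFP rats, with the highest bPYX+GFP rat level with the lowest naïve rat (log2 fold change -0.32 ± 0.088, edgeR adjusted p = 0.803). Dag1 and Sgce of the dystroglycan complex had log2 fold changes of -0.18 ± 0.067 and -0.14 ± 0.060, and Itgb3 had -0.89 ± 0.27. Of 15 fibroblast genes 1 was called, S100a4, at a log2 fold change of -0.29 ± 0.12, and the median was -0.079 (0 called without rat 15 or 18 or naïve rat 42, and 2 without rat 57). Rat 57 lay above its group in the mean of collagens (0.081 against -0.43 to -0.20 in the other 5, log2 CPM from the naïve mean) and of the matrix list (0.18 against -0.44 to -0.045). The part of fibroblast numbers in these values was not tested.

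Some endothelial receptors and transcription factors were called higher. Of 28 tested, 6 were called (21.4%), all higher against 0.733% of all genes, 22 had a log2 fold change above 0, and the median was 0.19. Without 1 rat the members called numbered from 3 to 8, all higher, with 3 without rat 15, 18 or 21 or without naïve rat 43 or 45, 6 without rat 57 and 8 without naïve rat 42, and the median ran from 0.13 to 0.25. Bcl6b, a repressor found mainly in endothelium, ranged from 185 to 226 (median 213) normalized counts in naïve rats and from 228 to 354 (median 322) in bPYX+GFP rats without overlap (log2 fold change 0.59 ± 0.10, edgeR adjusted p = 0.207, exact permutation p = 0.00216). Its lowest bPYX+GFP value was that of rat 57 just above the highest naïve rat, and without rat 57 the log2 fold change was 0.66. Flt4, the receptor for VEGF-C on lymphatic and growing endothelium, was near the filter on low counts and ranged from 5.53 to 13.9 (median 10.4) normalized counts in naïve rats and from 15.2 to 27.7 (median 16.8) in bPYX+GFP rats, also without overlap (log2 fold change 0.85 ± 0.26, edgeR adjusted p = 0.859). Adgrl4, an adhesion receptor of endothelium, ranged from 515 to 724 (median 604) normalized counts in naïve rats and from 453 to 883 (median 828) in bPYX+GFP rats (log2 fold change 0.35 ± 0.14, edgeR adjusted p = 1). The 5 bPYX+GFP rats other than rat 57 all lay above every naïve rat, and without rat 57, which was lowest of all 12, the log2 fold change was 0.47. It was called in 8 of the 12 fits without 1 rat. Dll4, the Notch ligand of sprouting tips, Tie1, a receptor kinase, and Fli1, an ETS factor, had log2 fold changes of 0.52 ± 0.23, 0.30 ± 0.13 and 0.28 ± 0.11. Tie1 was called in 4 of 12 fits without 1 rat. Cdh5 and Pecam1, the junction and adhesion proteins that define endothelium, were not called, at log2 fold changes of 0.22 ± 0.17 and 0.17 ± 0.14. The VEGF receptor Kdr had a log2 fold change of 0.064 and Tek of -0.0079. In bPYX+NT3 rats Bcl6b stood at 286 ± 69.4, Flt4 at 22.5 ± 8.21 and Adgrl4 at 798 ± 147. The mean of the list ran from -0.12 to 0.28 in naïve rats, with rat 42 highest, and from 0.041 to 0.25 in bPYX+GFP rats (log2 CPM from the naïve mean), so the list means overlapped.

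Some transporters of the blood-nerve barrier were lower. Of 22 transporters and junction proteins 3 were called (13.6%), all lower against 2.52% of all genes, while the median log2 fold change was -0.051. Abcg2, an efflux pump, ranged from 830.3 to 1142 (median 1083) normalized counts in naïve rats and from 667 to 967 (median 827) in bPYX+GFP rats. The groups overlapped through naïve rat 41 alone (log2 fold change -0.37 ± 0.094, edgeR adjusted p = 0.706). Slco1c1, which carries thyroid hormone, had 179 ± 43.8 and 106 ± 31.1 normalized counts (SD, log2 fold change -0.76 ± 0.21, edgeR adjusted p = 0.803), and Slco1a4, an organic anion transporter, -0.32 ± 0.12. The bPYX+NT3 rats stood at 764 ± 132 for Abcg2, 106 ± 24.1 for Slco1c1 and 1182 ± 324 for Slco1a4. Cldn5, the main claudin of endothelial tight junctions and a member of the endothelial list, had a log2 fold change of 0.16 and was not called. Pericyte and smooth muscle genes had 0 of 14 called and a median of -0.061, with log2 fold changes of -0.097 ± 0.080 for Mylk and 0.0080 ± 0.14 for Pdgfrb. Genes of the perineurium and leptomeninges, the sheaths of nerve and root, had the second highest median of the lists, 0.36, with 15 of 18 above 0. A single member was called, Zic1, a transcription factor of meningeal cells (16.4 ± 6.82 and 27.5 ± 8.10 normalized counts, SD, log2 fold change 0.75 ± 0.29, 0.60 without rat 57). The members called numbered 7 without rat 52 or without naïve rat 42, all higher. They numbered 2 without rat 57 or naïve rat 41, all higher, and 2 without rat 18, 1 higher and 1 lower. Without any of the others 1 was called, and the median ran from 0.25 to 0.45 over these fits. Ptgds, a prostaglandin synthase abundant in meninges, and Bmp7 were not called at log2 fold changes of 0.50 ± 0.25 and 0.57 ± 0.30. The list mean spread from -0.49 to 0.50 in naïve and from -0.34 to 0.60 in bPYX+GFP rats, more than the distance between groups, and how much sheath was dissected with each ganglion is not given in the sources used here.

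**Figure D4:**
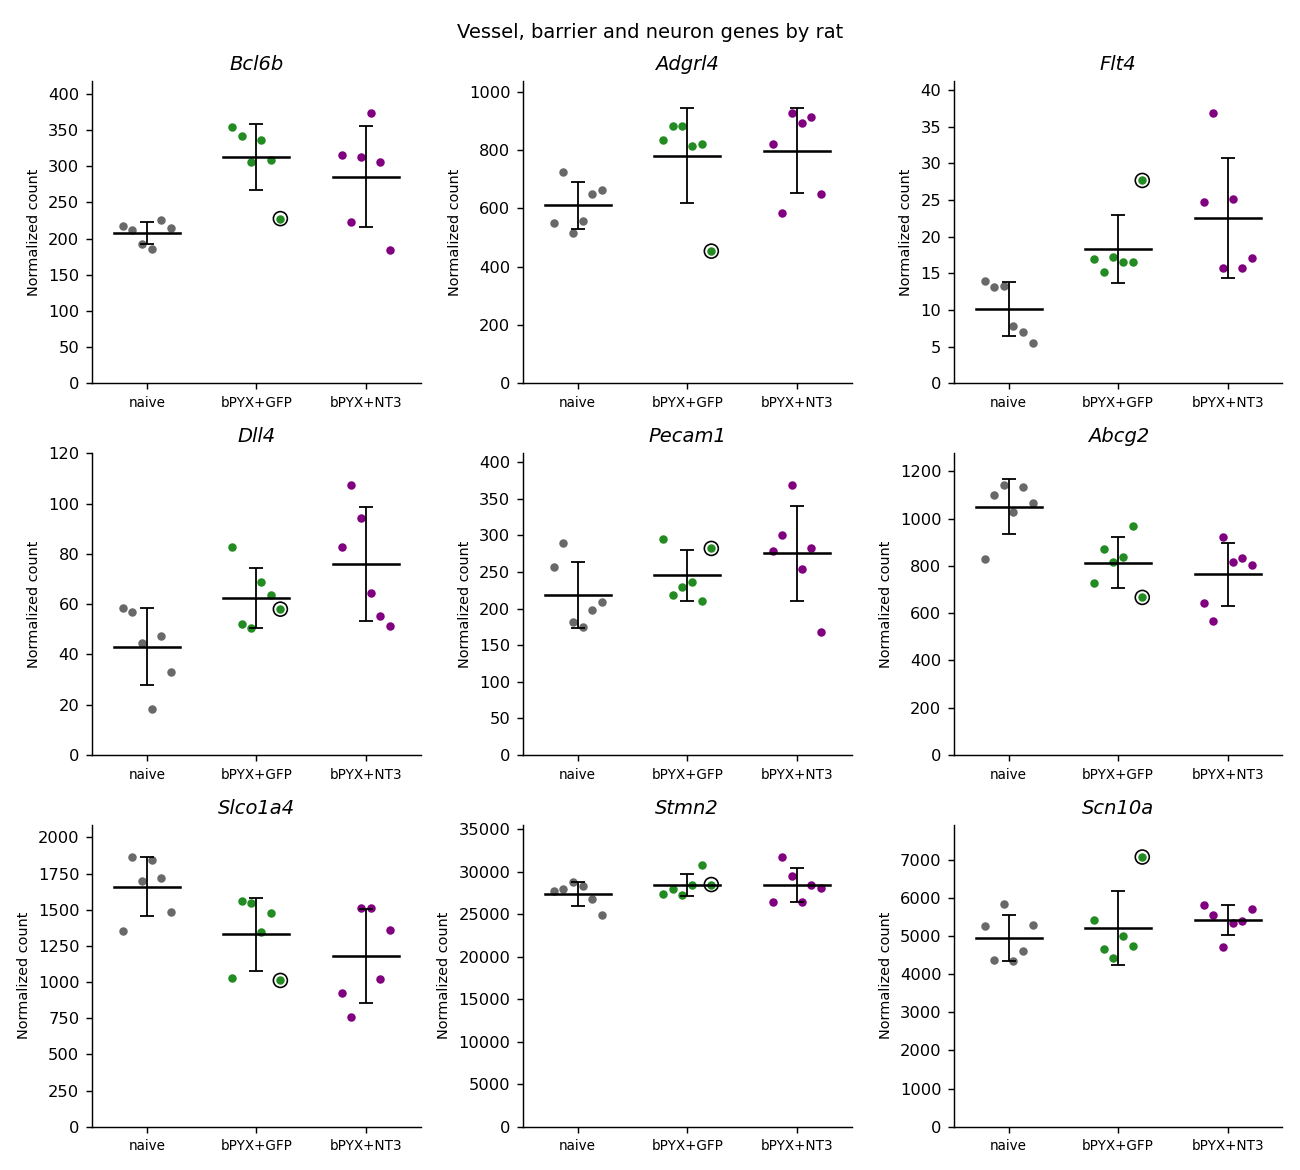
Normalized counts of 9 vessel, barrier and neuron genes in each rat, drawn as in the plot of myelin and matrix genes (grey naïve, green bPYX+GFP, purple bPYX+NT3, with mean ± SD and a ring for rat 57). Bcl6b and Flt4 of bPYX+GFP rats lie above all naïve rats, Abcg2 and Slco1a4 have lower means, and Stmn2 and Scn10a overlap.

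Each immune list held at most 2 called genes. Among 19 macrophage genes 1 was called higher and 1 lower (1 to 2 called without 1 rat), a share of 10.5% against 3.25% of all genes called in either direction. Gpnmb, a lysosomal glycoprotein of lipid-laden phagocytes, ranged from 250.1 to 372 (median 304) normalized counts in naïve rats and from 291 to 1202 (median 313) in bPYX+GFP rats. The difference rested on rats 15 and 57, at 897 and 1202, while the other 4 lay within the naïve range (log2 fold change 0.88 ± 0.35, edgeR adjusted p = 1, exact permutation p = 0.199). Cx3cr1, the fractalkine receptor, had a log2 fold change of -0.47 ± 0.20, and 16 of the 19 genes were below 0. Antigen presentation genes had 0 of 15 called, with log2 fold changes of 0.000072 ± 0.080 for B2m and -0.092 ± 0.29 for Cd74. Of 10 lymphocyte genes 0 were called, with log2 fold changes of -0.026 ± 0.17 for Il7r and -0.022 ± 0.24 for Cd4, and Cd3d, Cd8b and Cd79b did not pass the filter. All 6 mast cell genes tested were below 0, with a median of -0.32, and 2 were called (33.3%), both lower against 2.52% of all genes. These were Hdc, which makes histamine (log2 fold change -0.56 ± 0.22), and Cpa3, a granule protease (-0.35 ± 0.16). They were called in 5 and 4 of the 12 fits without 1 rat, and the list had 0 called without rat 57 or naïve rat 44 or 45 and 3 without rat 18. Hdc did not pass the filter without rat 57 or without naïve rat 45 and counts as not called there. Interferon-stimulated genes, the antiviral set, had none called higher. Of 26 tested 23 lay below 0, the median was -0.21 and 1 was called, Gbp2, at a log2 fold change of -0.52 ± 0.23 (0 to 2 called without 1 rat). Naïve rat 45 stood highest in this list, at 0.75 log2 units from the naïve mean, and held 334 normalized counts of Cxcl10 against 38.6 to 117 in the other 5 naïve rats. Without that rat the list median was -0.00031.

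Sensory neuron genes held few calls. Of the 11 pan-neuronal genes 0 were called and the median was 0.086, with log2 fold changes of 0.051 ± 0.054 for Stmn2, 0.076 ± 0.12 for Thy1 and 0.094 ± 0.14 for Rbfox3. Proprioceptor and large-fibre genes had 0 of 19 called and a median log2 fold change of 0.089. Nefm and Nefl, neurofilaments of large axons, had log2 fold changes of 0.089 ± 0.076 and 0.11 ± 0.077. Nociceptor genes had 0 of 22 called and a median log2 fold change of 0.091. The tetrodotoxin-resistant sodium channels of pain fibres, Scn11a and Scn10a, had log2 fold changes of 0.032 ± 0.083 and 0.077 ± 0.12. Sodium and calcium channels had 0 of 25 called (Scn9a log2 fold change 0.047 ± 0.11, Scn4b 0.053 ± 0.069). Of 41 potassium and HCN channels 1 was called, Kcnq5, a subunit of the M-current, which was higher (1430 ± 182 and 1660 ± 119 normalized counts, SD, log2 fold change 0.22 ± 0.082, edgeR adjusted p = 1). Without rat 57 or without naïve rat 41 a further gene was called, lower in each of these fits. Synaptic vesicle fusion had 0 of 32 called, with log2 fold changes of 0.056 ± 0.070 for Vamp1 and -0.021 ± 0.12 for Syt4. The small positive medians of these lists went with rat 57. Without it they were -0.020 for pan-neuronal, 0.023 for proprioceptor, -0.0039 for nociceptor, -0.035 for sodium and calcium channel and -0.0030 for fusion genes. In that fit 1 pan-neuronal and 2 fusion genes were called, all higher, and 3 nociceptor genes, 2 higher and 1 lower. Rat 57 held 7069 normalized counts of Scn10a and 14609 of Thy1, above the other 5 of its group. Ntf3 and the neurotrophin-3 receptor Ntrk3 are paired with no identifier here and were not analysed.

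Genes that an axon cut switches on in DRG neurons had none called higher. Of 29 tested 22 lay below 0, the median was -0.12, and 1 was called, Arg1, an arginase of regenerating neurons and of macrophages, which was lower, ranging from 23.2 to 149 (median 74.0) normalized counts in naïve rats and from 29.2 to 53.3 (median 39.4) in bPYX+GFP rats (log2 fold change -1.01 ± 0.35, edgeR adjusted p = 1). The count rested on single rats. Without naïve rat 49 the list had 9 members called, all lower, and a median of -0.23. Without rat 21 it had 4 and without rat 52 it had 2, all lower. Without rat 57 it had 2, 1 higher and 1 lower, and without any other rat 1. The median was -0.062 without rat 5. Atf3, the transcription factor that marks axotomized neurons, ranged from 104 to 1207 (median 714) normalized counts in naïve rats and from 225 to 717 (median 442) in bPYX+GFP rats and was not called (-0.56 ± 0.40). Sprr1a and the neuropeptide Gal had log2 fold changes of -1.11 ± 0.54 and -0.62 ± 0.45. Neither was called here by the quasi-likelihood test, whereas the study lists Sprr1a among the mRNAs changed by pyramidotomy, at the same log2 fold change of -1.11. It does not name its edgeR test for mRNAs, and whether the choice of test made this difference was not tested. Naïve rat 49 was lowest of all 12 rats in all of these 3 genes, at 104, 0 and 28.8 normalized counts, and the spread of Atf3 over naïve rats (SD 362 around a mean of 672 normalized counts) exceeded the difference between groups. Immediate early genes had 1 of 23 called, Egr2, described above, and a median log2 fold change of 0.046 (0 to 2 called without 1 rat). Among 25 axon guidance genes of the semaphorin, plexin and neuropilin families, 4 were called (16%), all lower against 2.52% of all genes. Sema5a, a membrane semaphorin, had a log2 fold change of -0.34 ± 0.13, Sema4g -0.34 ± 0.15, and Plxnb3, a semaphorin receptor, -0.26 ± 0.11. Plxdc1, which is named for a plexin-like domain, had a log2 fold change of -0.49 ± 0.21. In rat 57 Sema4g was 252 normalized counts against 154 to 173 in the other 5, and without it the list had 7 members called lower and 1 higher. Without rat 5, 21 or 52 or naïve rat 43 the list had 1 member called, without rat 15 or naïve rat 41, 42 or 49 it had 2, and without naïve rat 44 or 45 it had 6. Of the 2 called without rat 15, 1 was higher.

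Some cell cycle genes were called lower. Of 32 tested 6 were called (18.8%), all lower against 2.52% of all genes, and 26 lay below 0 (median -0.11). Ccnd1, the D cyclin that drives entry into S phase, ranged from 590.3 to 762 (median 687) normalized counts in naïve rats and from 455 to 568 (median 479) in bPYX+GFP rats without overlap (log2 fold change -0.48 ± 0.076, edgeR adjusted p = 0.201). Its partner Cdk6 did not overlap between the groups either, ranging from 74.1 to 87.1 (median 80.3) normalized counts in naïve rats and from 59.6 to 73.6 (median 66.5) in bPYX+GFP rats (-0.26 ± 0.10). Cdkn1a, which inhibits such kinases, was lower too, at a log2 fold change of -0.45 ± 0.18. The mitotic genes Aurkb and Ccnb2 and the nucleotide reductase subunit Rrm2 had log2 fold changes of -0.94 ± 0.38, -0.57 ± 0.24 and -0.40 ± 0.17, and were called in 4, 9 and 8 of the 12 fits without 1 rat. Aurkb did not pass the filter on low counts without rat 57 or without naïve rat 45, and counts as not called there. Naïve rat 44 was highest in both Ccnb2 and Rrm2, at 75.2 and 332 normalized counts. The list had 3 members called without rat 5 or 57 or without naïve rat 42, 4 without rat 18 or naïve rat 44 or 45, and 8 without naïve rat 49. Of the 4 called without naïve rat 44, 1 was higher. Of 20 glucocorticoid-responsive genes 2 were called, both lower, Zbtb16 (log2 fold change -0.93 ± 0.34) and Cdkn1a, while the median was 0.061 (1 called without naïve rat 42 or 45). Of 16 clock genes 1 was called, Nfil3 (log2 fold change -0.51 ± 0.22), with from 0 to 4 called without 1 rat, the most without rat 52, and the time of day of sampling is not given in the sources used here. Hypoxia-response genes had Stc1, a secreted glycoprotein hormone, called higher and P4ha1 called lower among 19 tested, with a median log2 fold change of 0.036. Stc1 ranged from 98.5 to 149 (median 119) normalized counts in naïve rats and from 112 to 288 (median 220.0) in bPYX+GFP rats, with rat 57 alone of its group within the naïve range (log2 fold change 0.78 ± 0.20, edgeR adjusted p = 0.706). Protein folding genes had 2 of 21 called, both lower, Creld2 (log2 fold change -0.39 ± 0.15) and Pdia5 (-0.32 ± 0.13), which act on folding in the endoplasmic reticulum. Without rat 18 the list had 7 members called, all lower, without naïve rat 43 it had 0, and without rat 5 or naïve rat 42 or 45 it had 1.

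Housekeeping programmes held no called gene. Subunits of oxidative phosphorylation had 0 of 73 called and a median of 0.055, with 70 above 0 (0.019 without rat 57), and Atp5f1b and Ndufs1 had log2 fold changes of 0.065 ± 0.054 and 0.024 ± 0.084. Ribosomal proteins had 0 of 68 called and a median of 0.021 (-0.022 without rat 57), with log2 fold changes of 0.020 ± 0.050 for Rpl4 and -0.013 ± 0.084 for Rps3a. Markers of neighbouring tissue were few and uneven. Of 5 adipocyte genes 1 was called, Lpl, which myelinating glia also express (log2 fold change -0.40 ± 0.17), and 0 to 1 were called without 1 rat. Of 7 muscle genes Atp2a1, the calcium pump of fast fibres, was higher (log2 fold change 1.17 ± 0.53) and Myom2 lower (-0.60 ± 0.24), with 0 to 2 called without 1 rat. Atp2a1 stood at 78.6 normalized counts in rat 57 against 6.78 to 21.9 in the other 5, and had a log2 fold change of 0.28 without it. Blood genes had 0 of 9 called, with log2 fold changes of -0.17 ± 0.37 for Hbb and -0.40 ± 0.50 for S100a9, and a median of -0.44 that spread widely over rats of both groups. Of the epidermal list 2 of 15 genes were tested, Ppl (log2 fold change 0.50 ± 0.16), a linker of filaments to the cell border that is also present outside skin, and Tgm1 (-1.21 ± 0.55), which was called in 3 of the 12 fits without 1 rat. Among 8 genes of central oligodendrocytes and astrocytes Gfap alone was called, and Opalin and Gpr17, which define central oligodendrocytes, did not pass the filter.

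**Figure D5:**
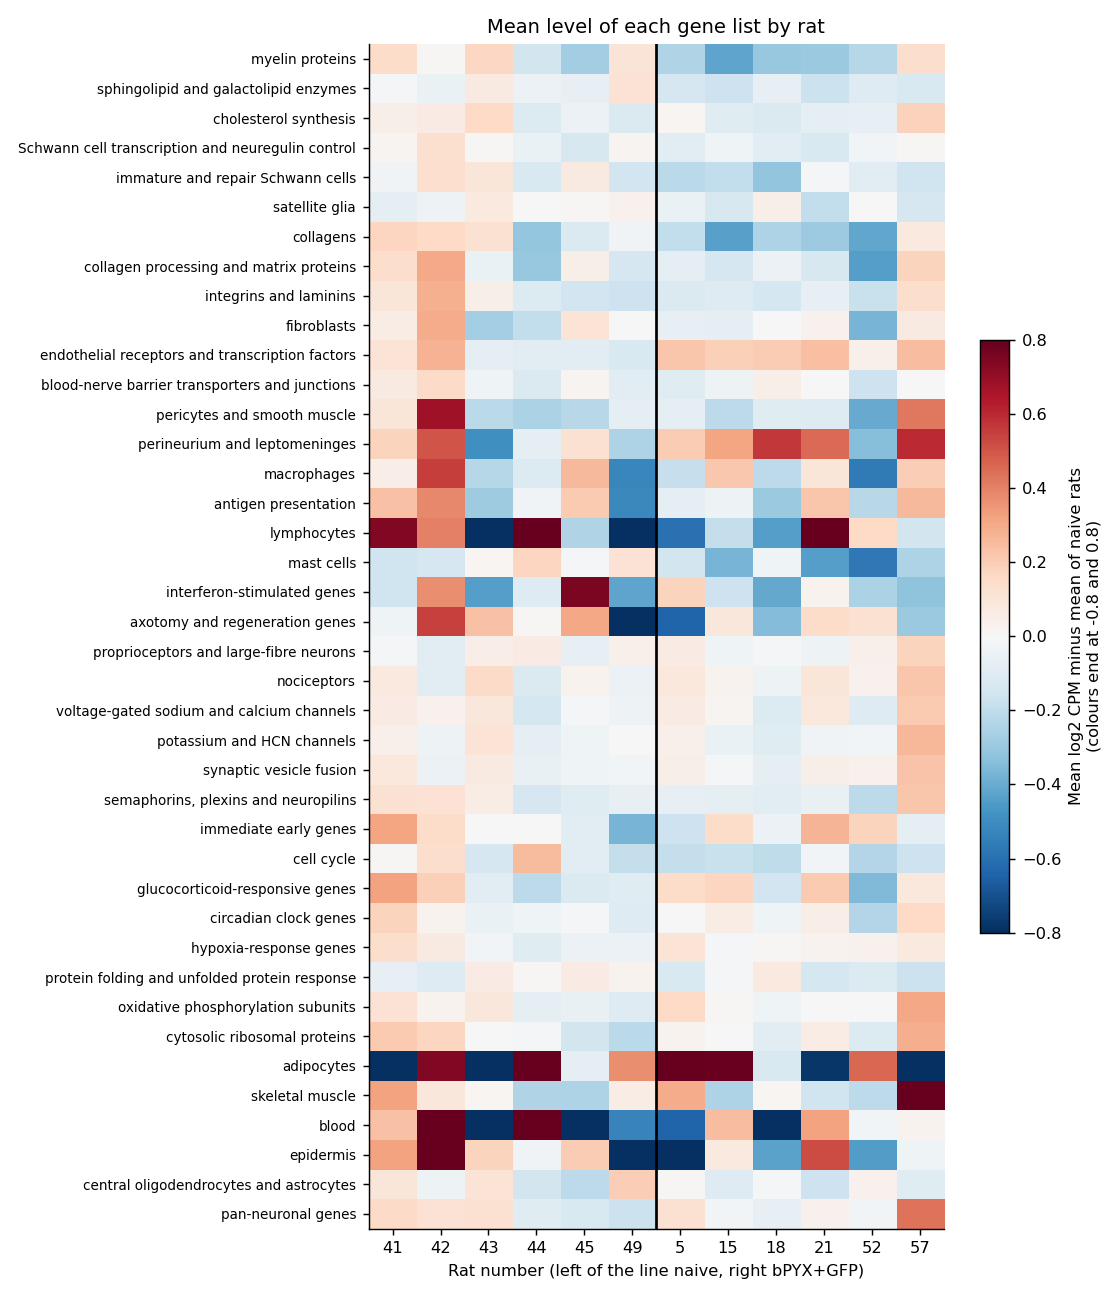
Mean log2 CPM of the tested members of each list in each rat, minus the mean of the 6 naïve rats (left of the line), with the 6 bPYX+GFP rats at the right and colours ending at -0.8 and 0.8. Myelin and collagen lists are below the naïve mean in the bPYX+GFP rats other than rat 57, the endothelial list is above it in 6 of 6, and adipocyte, blood and lymphocyte lists vary among rats of both groups.

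Several of the genes with the smallest p lie outside these lists. Slc4a4, a sodium bicarbonate cotransporter of satellite glia and other cells, ranged from 1501 to 1777 (median 1641) normalized counts in naïve rats and from 1907 to 2202 (median 2046) in bPYX+GFP rats without overlap (log2 fold change 0.32 ± 0.053, edgeR adjusted p = 0.201). Frzb, a secreted Wnt antagonist, ranged from 123 to 185 (median 143) normalized counts in naïve rats and from 179 to 244 (median 215) in bPYX+GFP rats, with overlap in rat 57 (log2 fold change 0.54 ± 0.11, edgeR adjusted p = 0.337), against 166 ± 14.9 in bPYX+NT3 rats. Id1, a target of BMP signalling, Ripk4, a kinase, and B3gat2, a glucuronyltransferase, had log2 fold changes of 0.61 ± 0.18, 0.53 ± 0.16 and 0.31 ± 0.099. Another 3 of the 12 leading higher identifiers are paired with no symbol here, NM_001110811 at a log2 fold change of 0.52 ± 0.16, NM_001258011 at 0.19 ± 0.059 and NM_001107638 at 0.34 ± 0.11. Among the lower genes, Emp2, a tetraspan membrane protein related to Pmp22, ranged from 1196 to 1629 (median 1349) normalized counts in naïve rats and from 959.5 to 1151 (median 1042) in bPYX+GFP rats without overlap (log2 fold change -0.40 ± 0.077, edgeR adjusted p = 0.292). P2rx7, the ATP-gated channel that in ganglia lies on glia, ranged from 459 to 600.4 (median 575) normalized counts in naïve rats and from 389.7 to 451 (median 441) in bPYX+GFP rats without overlap (log2 fold change -0.36 ± 0.073, edgeR adjusted p = 0.343). B3gnt5, which starts the lacto-series of glycosphingolipids, had 435 ± 94.6 and 261 ± 71.3 normalized counts (SD, log2 fold change -0.74 ± 0.18, edgeR adjusted p = 0.67), and 260.2 ± 56.4 in bPYX+NT3 rats. Mboat1, a lysophospholipid acyltransferase, Hspa2, a heat shock protein, and Map4k4, a kinase, also did not overlap, at log2 fold changes of -0.43 ± 0.083, -0.36 ± 0.079 and -0.21 ± 0.046. Sntb1 of the dystrophin complex had a log2 fold change of -0.38 ± 0.090, the RNA-binding protein Lin28a -0.83 ± 0.20, and NM_053484, with no symbol here, -0.34 ± 0.076.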

How the data were processed

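Counts came from paired reads of stranded poly(A) libraries, 1 library per rat from its pooled ganglia. The authors made base calls with bcl2fastq 1.8.4, aligned reads with TopHat2 to the rat genome Rnor_6.0 (rn6), removed duplicates with Picard and deposited read counts per RefSeq identifier from HTSeq, which were used as deposited. Versions of the aligner and counter are not given in the sources used here. Removing duplicates lowers the counts of abundant genes most. Symbols came from the RefSeq table (GRCr8) by accession, which named 14193 of 15075 identifiers, and for the symbols with several identifiers that with most reads was used in the lists, since reads shared between identifiers could be lost in counting (42.6% of such identifiers were tested against 77.9% of the others). 

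A gene had to exceed 10 reads in 6 or more of the 12 rats and was then tested with edgeR 4.0.16 in R 4.3.3 (TMM scaling, quasi-likelihood F test, group as the only term), and p was adjusted after Benjamini-Hochberg across every tested gene. Calls use an unadjusted p under 0.05. Normalized counts are counts scaled to the mean TMM library size, fold changes are log2 of bPYX+GFP over naïve with a standard error (SE), and exact two-sided permutation tests used log2 CPM with a prior count of 2. The code was tested on simulated counts. Reads on no feature (31.7% to 34.6% of all reads counted in the 12 rats), on overlapping features (2.79% to 3.31%) and on several locations (19.0% to 22.3%) entered neither library sizes nor tests. Groups followed the rat numbers in the heading of the count table and the study's list of rats. The gene lists and the members of this comparison were chosen with earlier results of these data known. Genes named are the leading called genes by p in each direction, the called genes of each list with the smallest p, or where none was called those with the most reads, and some chosen after their values were seen (for example Mag, Cdh5, Pecam1, Atf3, Sprr1a, Gal, Sox10 and Rbfox3). Alternatives were other tests (DESeq2 1.42.0, likelihood ratio), scalings, filters, a fit over 18 rats, a covariate, the groups of the titles and each rat left out. Some genes are not reported here by name.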

Additional observations from a re-analysis of the deposited data

Results flagged for a closer look

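In some groups of 6 rats 1 rat lay far from the other 5, by a gap that took up most of the group's range. Chance alone would mark about 1 in 20 groups in this way. The screen took in the 131 named genes, apart from those with no symbol, and the library measures, each in both groups. These genes are not independent and some were chosen after their values were seen, so the number marked was not tested against that share. Of the 26 cases 15 were rat 57 of the bPYX+GFP group. In normalized counts, rat 57 was above the other 5 rats of its group in genes of neurons, glia, pericytes and muscle, with 7069 for Scn10a against 4418 to 5410, 14609 for Thy1 against 8949 to 11068, 717 for Rbfox3 against 418 to 530.0, 5930 for Ngfr against 3478 to 4239, 1793 for Cnp against 1428 to 1533, 445 for Cldn19 against 235 to 291, 799.9 for Pdgfrb against 479 to 557, 252 for Sema4g against 154 to 173, 27.7 for Flt4 against 15.2 to 17.3 and 78.6 for Atp2a1 against 6.78 to 21.9. It was below them with 453 for Adgrl4 against 813 to 883, 12322 for B2m against 15199 to 16858 and 20.5 for Ccnb2 against 30.4 to 33.9. Its reads on no feature were 31.7% against 33.6% to 34.2%, and those on overlapping features 3.31% against 2.79% to 2.98%. The part of this library in the results above is given by the values without it, and what set it apart was not tested. Elsewhere in the bPYX+GFP group, rat 52 had 389.7 for P2rx7 against 433 to 451 and 30869 for Stmn2 against 27330 to 28513, and rat 18 had 421 for Thbs2 against 270.0 to 317. Among naïve rats, rat 49 had 3820 for Cntf against 2272 to 2702, rat 41 830.3 for Abcg2 against 1028 to 1142, rat 42 1836 for Mylk against 1291 to 1485 and 527 for Cdh5 against 301 to 366, rat 44 332 for Rrm2 against 175 to 228 and 7262 for Rps3a against 5648 to 6090, and rat 45 14841 for Sparc against 16844 to 18046 and 334 for Cxcl10 against 38.6 to 117.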

How the results depend on the processing

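Among the 93 named genes called, the direction held in all 1092 values computed without 1 of the 12 rats, of which 898 kept p under 0.05 and 194 did not, and in all 912 values under the other settings apart from the groups of the titles (872 and 40). These genes were called in the same rats that the refits reuse. A kept direction was therefore likely in advance and is no independent check. Leaving out 1 rat gave 272 to 595 genes called, 56 to 201 called higher, 211 to 394 called lower and 0 to 1 with an edgeR adjusted p under 0.05, and medians from -0.035 to 0.18 for the circadian clock genes. Medians took both signs over these fits in 17 of the 40 lists, most widely in adipocytes (-0.41 to 0.97), blood (-0.63 to 0.059), lymphocytes (-0.47 to 0.044) and macrophages (-0.20 to 0.051). Counts of called members changed by more than 1.5 times in 22 of the 28 lists with a call. With the no-feature share of reads as a covariate 848 genes were called, 281 higher and 567 lower, 17 of them with an adjusted p under 0.05. The likelihood ratio test gave 13 such genes and DESeq2 17. With no filter on low counts 138 genes were called higher and the skeletal muscle median was 0.55. With more than 50 reads asked for in 6 rats the medians were -0.10 for mast cells, -0.29 for skeletal muscle, 0.50 for epidermis and -0.21 for central oligodendrocytes and astrocytes, with fewer genes tested. With the groups that the titles give the single-rat files, 174 genes were called, 108 of them lower, and the list medians that changed by more than the SD between rats of the same group in the mean of the list were myelin proteins -0.015, sphingolipid and galactolipid enzymes 0.030, endothelial receptors and transcription factors -0.12, perineurium and leptomeninges -0.096, mast cells -0.048, proprioceptors and large-fibre neurons -0.058, cell cycle 0.042, hypoxia-response genes -0.055, oxidative phosphorylation subunits -0.066 and adipocytes -1.39. Other medians changed by less than that SD, but some changed sign or came near 0 too, with blood at 0.34, lymphocytes at 0.44, fibroblasts at 0.036, integrins and laminins at 0.0077 and collagens at -0.020. By rat number, the group titled naïve holds injured rats alone, and the group titled GFP mixes bPYX+GFP, bPYX+NT3 and naïve rats. This setting is therefore not a comparison of bPYX+GFP with naïve rats, and its values do not measure dependence on the processing. Under these title groups the log2 fold changes of 77 named genes took the other sign. They were above 0 for Col15a1 0.029, Emp2 0.079, Mboat1 0.041, Cers2 0.017, Fa2h 0.13, Col14a1 0.16, Ugt8 0.17, Col1a1 0.11, B3gnt5 0.075, Col3a1 0.13, Mal 0.10, Pmp2 0.28, Pmp22 0.062, Gldn 0.17, Nsdhl 0.044, Egr2 0.0091, Zeb2 0.0032, Cntf 0.062, Col9a1 0.28, Itga6 0.063, Itgb3 0.20, Sgce 0.028, Abcg2 0.20, Slco1c1 0.12, Slco1a4 0.21, Mylk 0.057, Il7r 0.35, Syt4 0.035, Sema5a 0.21, Plxdc1 0.13, Cdk6 0.044, Aurkb 0.38, Rrm2 0.14, Zbtb16 0.84, Pdia5 0.029, Rps3a 0.016, S100a9 0.28, Mag 0.13, Mbp 0.089, Plekhb1 0.0057, Col11a1 0.11, Sparc 0.0070, Lum 0.29, Fbn1 0.14, Ccnb2 0.24 and Postn 0.20. They were below 0 for Bcl6b -0.19, Frzb -0.20, Stc1 -0.27, Id1 -0.12, Flt4 -0.37, NM_001107638 -0.011, Ripk4 -0.061, S100b -0.15, Adgrl4 -0.12, Fli1 -0.090, Tie1 -0.24, Pdgfrb -0.039, Gpnmb -0.42, B2m -0.050, Nefm -0.016, Nefl -0.058, Scn4b -0.044, Kcnq5 -0.0099, Vamp1 -0.039, Atp5f1b -0.067, Rpl4 -0.0065, Atp2a1 -0.30, Stmn2 -0.033, Thy1 -0.061, Ngfr -0.15, Dll4 -0.42, Cdh5 -0.054, Pecam1 -0.19, Ptgds -0.37, Bmp7 -0.10 and Rbfox3 -0.0073. Genes not called that changed sign without 1 rat ranged as follows on the log2 scale over the 12 fits, Pdgfrb -0.13 to 0.11, B2m -0.030 to 0.052, Cd74 -0.26 to 0.068, Il7r -0.19 to 0.10, Cd4 -0.15 to 0.16, Scn11a -0.024 to 0.085, Scn10a -0.035 to 0.13, Scn9a -0.0084 to 0.13, Scn4b -0.0067 to 0.076, Syt4 -0.061 to 0.064, Ndufs1 -0.021 to 0.079, Rpl4 -0.0013 to 0.042, Rps3a -0.042 to 0.049, Hbb -0.36 to 0.081, S100a9 -0.60 to 0.16, Thy1 -0.044 to 0.12, Ngfr -0.053 to 0.13 and Rbfox3 -0.038 to 0.15. Single settings turned 2 uncalled genes, Pdgfrb with library size alone (-0.0011) and with the no-feature share (-0.030), and B2m with library size alone (-0.0072), no filter (-0.0010), edgeR's default filter (-0.00014) and 1 fit over 18 rats (-0.00061). The causes of the changes under settings other than the groups of the titles were not tested. At this depth genes near the filter have the least certain values. No paired analysis was possible because the groups share no rat numbers.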
